A study of Mus musculus with 20 samples.

Results

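The S100 calcium-binding protein genes S100a1, S100a4, S100a6, S100a8, S100a9, S100a10, S100a11 and S100g were followed through whole-kidney RNA-seq of adult mice. They were taken by symbol, and the choice was made with earlier results of these data known. These 8 genes are part of the 17 S100 genes with a row among the 55471 gene identifiers counted, and each of the 8 matched 1 row. S100a6, S100a10 and S100a11 were higher in the kidneys of mice with wild-type TERT (WT/WT) after Adriamycin (ADR) than after saline, S100a6 was also higher after ADR in TERT knockout (KO/KO) mice, and S100g was lower after ADR in WT/WT mice. The S100g difference was close to the threshold and did not pass in 9 of 12 fits that left out 1 library.

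The 20 mice were female and 2 months old, and each gave 1 library from a whole kidney. In the first experiment, on a mixed strain background, 3 i-TERTci mice and 4 actin-rtTA+ controls drank doxycycline (2 mg/ml in 5% sucrose) for 15 days and were killed 8 days after its removal (R8). i-TERTci mice carried actin-rtTA+ and tetOp-TERTci+, both heterozygous, and so expressed catalytically inactive telomerase reverse transcriptase throughout the body rather than in podocytes alone. The controls carried the actin-rtTA+ transgene and took the same doxycycline. In the second experiment, on a Balb/c background after 10 backcross generations, 4 TERT WT/WT mice received saline, 3 TERT WT/WT mice received ADR, 3 TERT KO/KO mice received saline and 3 TERT KO/KO mice received ADR. ADR (doxorubicin, a DNA-damaging drug that injures podocytes) was given once into a vein at 12 mg/kg, kidneys were taken 18 days later, and the WT/WT mice were littermates of the constitutive knockouts.

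S100 proteins are small calcium sensors with a pair of EF-hands, a helix-loop-helix fold that grips calcium. Most form dimers that expose a hydrophobic surface on calcium binding and then dock onto a partner such as an annexin, and several are also released from cells and signal through the receptor RAGE, encoded by Ager, or Tlr4. In the kidney the family divides by cell type: S100g, the vitamin D-dependent calbindin of the distal tubule, shuttles calcium through the cell, S100a8 and S100a9 fill the cytosol of neutrophils and monocytes, S100a4 marks fibroblasts and migrating cells, and S100a6, S100a10 and S100a11 are made by many epithelial cells.

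Library totals ran from 39323498 to 48399322 counts. Tert had 230 to 1086 counts in the 3 i-TERTci libraries and 87 to 164 in the 4 controls. It had 51 to 210 counts in the KO/KO libraries that were kept and 122 to 379 in the WT/WT libraries, and these ranges overlapped. Counts were per gene, and the exons that the Tert reads came from were not examined. The podocyte gene Nphs1 had 167 to 3218 counts in 19 libraries. The library labelled KO/KO ADR replicate 2 had 2 counts of Nphs1 and 0 of Tert, and Alb, the liver's albumin gene, took 26.1% of its counts. It was therefore left out of group means and tests, and results that rest on the ADR experiment are also given with it kept. The 8 members had 0 to 1605 counts in it.

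In the coordinates of GENCODE M21 (GRCm38, the mm10 assembly), 7 of the members lie on chromosome 3. S100a1, S100a4, S100a6, S100a8 and S100a9 belong to a cluster of 12 S100 genes that spans 184688 bases, with S100a1 at chr3:90511034-90514392 on the minus strand at one end and S100a9 at chr3:90692632-90695721 on the minus strand at the other. S100a6 lies between them at chr3:90612882-90624181 on the plus strand. S100a11 (chr3:93520488-93526287) and S100a10 (chr3:93555080-93564643), both on the plus strand, lie 2824766 bases farther on and 28792 bases from each other. S100g is alone on chromosome X (chrX:162961992-162964599, minus strand), inside Ctps2 on the other strand, with 0 exonic bases shared. S100a4 (chr3:90603771-90606045, plus strand) has 584 exonic bases, of which 302 are also exon of the gene Gm42674 on the same strand. Gm42674 was listed at 0 counts in all 20 libraries and S100a4 at 0 to 28 counts, so the S100a4 counts are uncertain.

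The 250 bases before the RefSeq start (GRCm38.p6) are shown for the member with the smallest p after ADR in WT/WT mice (S100a6), for the member with the highest level after ADR (S100a11) and for the member that fell (S100g). They are written 5′ to 3′ on the strand of the gene, from chr3:90612644-90612893 on the plus strand, chr3:93520246-93520495 on the plus strand and chrX:162964600-162964849 on the minus strand. Capitals mark matches on either strand to 5 motifs. The TATA box was searched by the letters TATAAA. The box bound by Sp1 and its relatives, called the GC box, was searched by the letters GGGCGG. The AP-1 site was searched as TGANTCA, the C/EBP site as TTNNGCAA and the antioxidant response element as TGACNNNGC.
S100a6: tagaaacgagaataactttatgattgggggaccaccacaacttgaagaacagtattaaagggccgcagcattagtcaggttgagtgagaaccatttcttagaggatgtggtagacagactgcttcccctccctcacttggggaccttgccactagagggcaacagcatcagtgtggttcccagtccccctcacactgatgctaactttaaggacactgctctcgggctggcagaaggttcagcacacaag
S100a11: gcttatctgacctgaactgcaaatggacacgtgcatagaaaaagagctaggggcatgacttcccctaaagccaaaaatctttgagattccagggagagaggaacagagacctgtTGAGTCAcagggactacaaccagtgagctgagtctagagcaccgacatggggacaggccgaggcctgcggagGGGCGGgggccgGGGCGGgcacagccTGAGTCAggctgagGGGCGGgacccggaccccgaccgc
S100g: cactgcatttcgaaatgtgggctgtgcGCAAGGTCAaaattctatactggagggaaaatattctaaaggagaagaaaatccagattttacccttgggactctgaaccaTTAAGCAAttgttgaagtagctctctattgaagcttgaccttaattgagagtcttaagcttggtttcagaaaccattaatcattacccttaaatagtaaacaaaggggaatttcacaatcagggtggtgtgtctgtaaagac
The S100a11 stretch held 3 GC boxes, which began 64, 52 and 24 bases before the start, and 2 AP-1 matches with the letters TGAGTCA, which began 136 and 38 bases before it. The S100g stretch held a C/EBP match (TTAAGCAA) 142 bases before the start and a match to the antioxidant response element, read on the other strand, 223 bases before it. The S100a6 stretch held none of these letters. Windows of 300 bases, 250 before the start and 50 after it, were at hand for 7 members, and the TATA letters were in 4 of the 7, a GC box in 2, an AP-1 match in 1, a C/EBP match in 2 and an antioxidant response element in 1. Of 32817 windows of the same length, 13.6% held the TATA letters, 35.6% a GC box, 7.81% an AP-1 match, 10.8% a C/EBP match and 12.4% an antioxidant response element. The TATA letters began 31 and 30 bases before the start in S100a4 and S100a8, and at base 1 after it in S100a9 and S100g. The matches are descriptions of letters. In GENCODE M21, 42 bases separate S100a1 and S100a13, which lie on opposite strands. Their windows, which are set by the RefSeq starts instead, shared 204 bases.

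Levels were compared between members per length, in RPKM (reads scaled to exon length and library size). In saline-treated WT/WT kidneys the order was S100g (558 ± 108, SD, n = 4), S100a1 (452 ± 61.5), S100a11 (325 ± 42.4), S100a10 (56.1 ± 9.40), S100a6 (11.8 ± 1.99), S100a9 (1.03 ± 0.468), S100a8 (0.378 ± 0.234) and S100a4 (0.118 ± 0.105). Library ranges overlapped between S100g and S100a1, between S100a9 and S100a8 and between S100a8 and S100a4, and the other neighbours did not overlap. After ADR the order of the means at the top changed. S100a11 stood first in WT/WT mice at 1086 ± 514 RPKM (n = 3), ahead of S100a1 at 607 ± 78.1, with overlapping ranges, with S100g next at 188 ± 167. In the 2 KO/KO ADR libraries S100a11 was also first by mean (770.3 ± 253 RPKM) and did not overlap S100a1 (472 ± 92.1). It did overlap S100g (398 ± 314 RPKM), which stood above it in replicate 1 (620 against 591 RPKM). By mean, i-TERTci kidneys had S100a11 first (542 ± 276 RPKM, n = 3) and S100a1 second (408 ± 32.8). Actin-rtTA+ kidneys had S100g first by mean (625 ± 275, n = 4) and S100a11 behind S100a1 (208 ± 33.4). The ranges of S100a11, S100a1 and S100g overlapped in i-TERTci kidneys. There S100a11 was first in replicate 1 (859 RPKM), while S100g was first in replicates 2 and 3 (583 and 462 RPKM). With the longest transcript as length, S100a6 came to 20.5 RPKM and S100a10 to 99.3 in WT/WT saline kidneys, and their places in that order stayed.

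**Figure D1:**
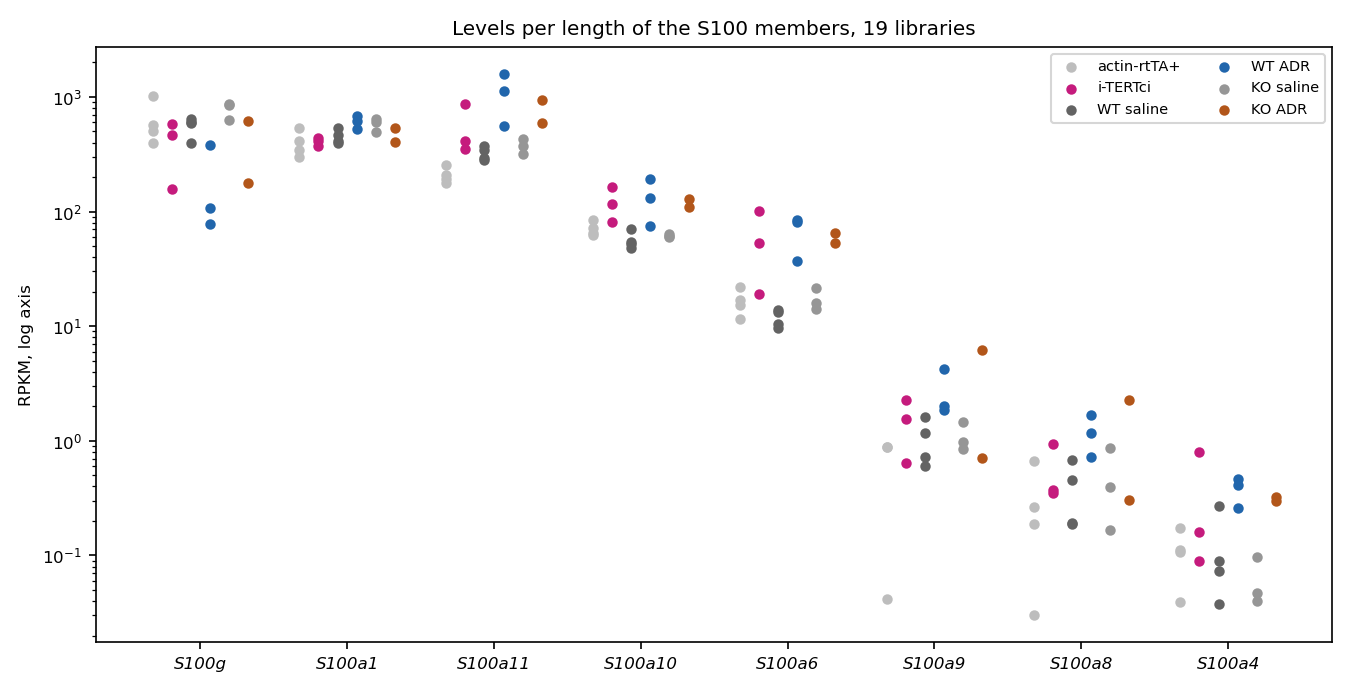
Levels of the 8 members in RPKM (log axis), 1 point per library and 1 colour per group, with the library labelled KO/KO ADR replicate 2 left out and the 1 library with 0 S100a9 counts not drawn. S100a11, S100a1 and S100g lie at the top, and S100a4, S100a8 and S100a9 lie below 10 RPKM in every library.

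The comparison of ADR with saline asks which genes differ 18 days after podocyte injury. In WT/WT mice, 3 of the 8 members rose (S100a6, S100a10 and S100a11), 1 fell (S100g) and 4 did not pass the test. Of all 19023 genes tested, 15.2% were called higher, 12% were called lower and 27.1% were called in either direction. The median log2 fold change was 1.36 over the 7 members that could pass the filter on low counts through saline libraries, which leaves out S100a4, and 0.0074 over all genes tested. The libraries of the 2 groups did not overlap for 6 of the 8 members, against 33.5% of all genes. The p values measure the spread between mice, since each library came from a separate animal.

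S100a6, also called calcyclin, a partner of annexins and of the ubiquitin ligase adaptor Cacybp, changed with the smallest p of the members. WT/WT saline libraries had 18.7, 18.1, 13.3 and 14.2 CPM (counts scaled to library size) of S100a6 in replicates 1 to 4. ADR libraries had 50.3, 115 and 110.3 CPM in replicates 1 to 3. All 3 ADR libraries lay above all 4 saline libraries, and ADR replicate 1 was the lowest of the 3. The means were 91.7 ± 35.9 (SD, n = 3) and 16.1 ± 2.72 CPM (n = 4), a 5.70-fold difference (log2 fold change 2.51, SE 0.26, adjusted p = 0.000647 by edgeR's quasi-likelihood test). By p, S100a6 held place 10 of the 19023 genes. In bulk RNA of a whole kidney, more cells of a type and more RNA per cell cannot be told apart.

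S100a10, which lacks working EF-hands and forms a tetramer with annexin A2 at the plasma membrane, had 84.6, 63.4, 58.9 and 65.2 CPM in saline and 89.9, 232 and 159.6 CPM after ADR. The groups did not overlap, but ADR replicate 1 was close to the highest saline library. The difference was 2.36-fold (log2 fold change 1.24, SE 0.24, adjusted p = 0.00437). S100a11, a partner of annexin A1, had 191, 151, 145 and 177 CPM in saline and 284, 809 and 572 CPM after ADR. Again every ADR library was above every saline library, with replicate 1 the lowest of the 3. The difference was 3.34-fold (log2 fold change 1.74, SE 0.28, adjusted p = 0.00213). These 3 members passed the test without any 1 of the 12 libraries, and the highest adjusted p among these fits was 0.00472 for S100a6, 0.0228 for S100a10 and 0.0119 for S100a11. With the library labelled KO/KO ADR replicate 2 kept, their log2 fold changes were 2.52, 1.25 and 1.75 and their adjusted p values 0.0814, 0.197 and 0.167, so that none passed.

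**Figure D2:**
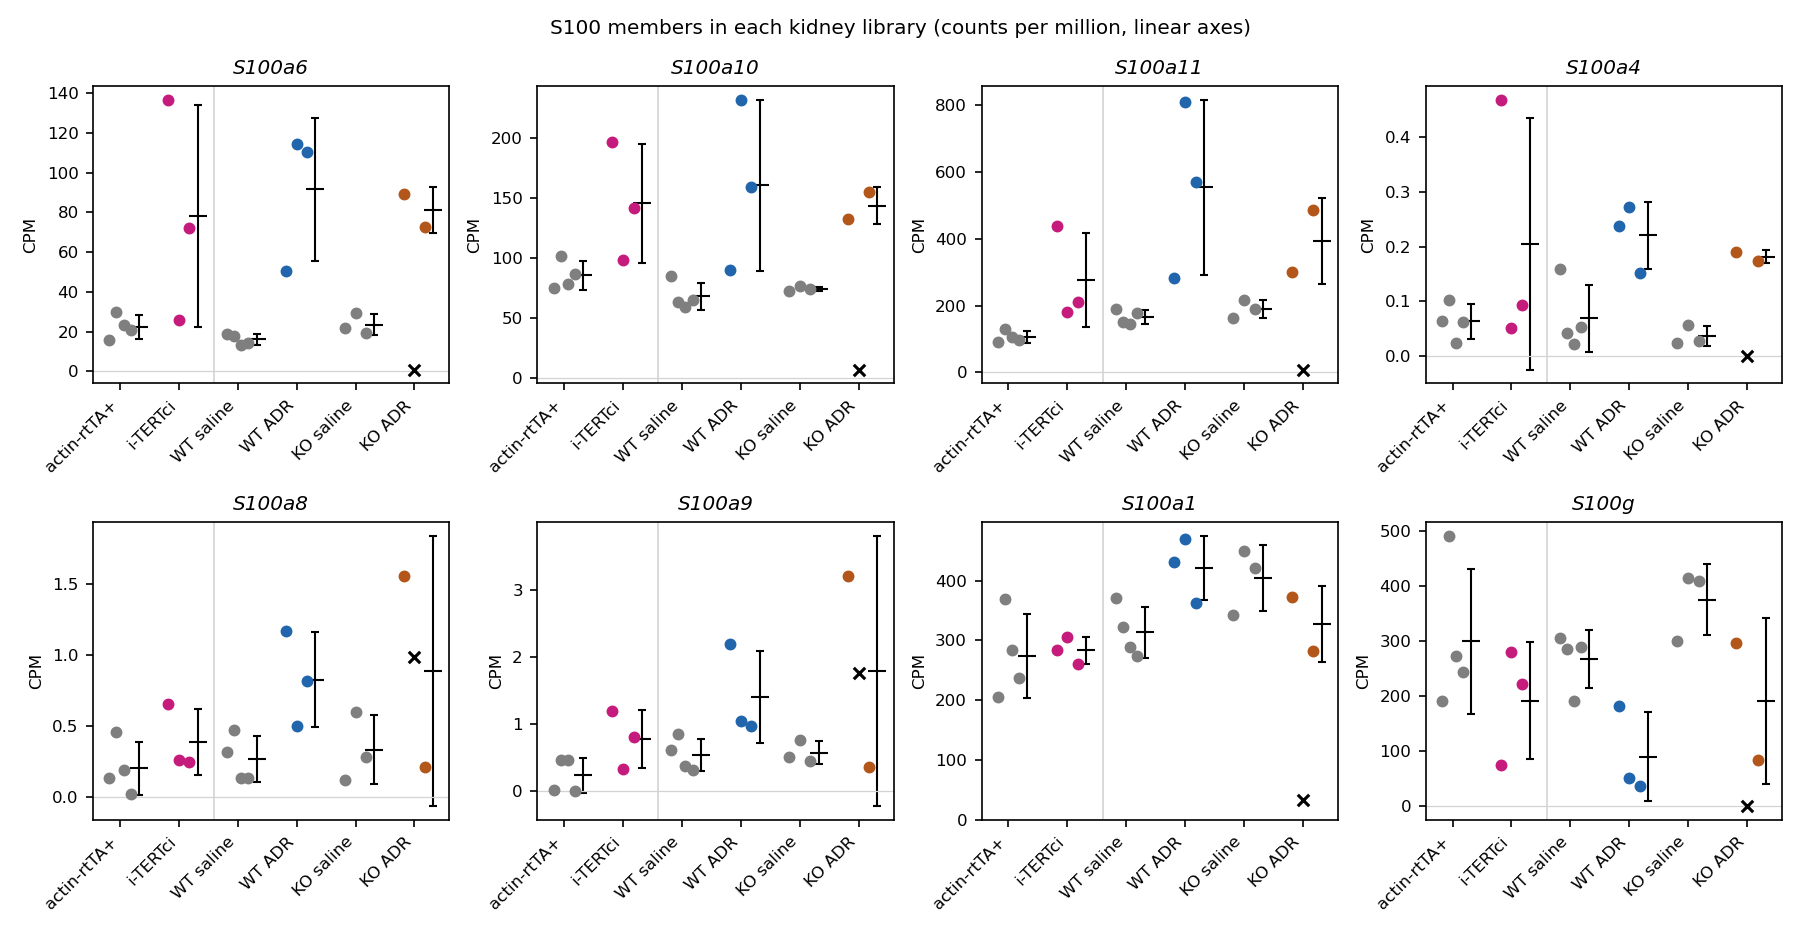
CPM of each member in each library (linear axes), with TMM factors set within each experiment, group means and SDs as bars beside the points, and a cross for the library labelled KO/KO ADR replicate 2, which is in no mean and has no TMM factor. S100a6, S100a10 and S100a11 are higher in every WT/WT ADR library than in every saline library, and S100g is lower.

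S100g carries calcium from the luminal channel to the basolateral pump in distal tubule cells. It had 305, 285, 191 and 290.0 CPM in WT/WT saline and 183, 51.3 and 37.2 CPM after ADR. ADR replicate 1 lay just below the lowest saline library and the other two lay far below it. The means were 268 ± 51.9 (SD, n = 4) and 90.4 ± 80.3 CPM (n = 3), 2.96-fold lower after ADR (log2 fold change -1.57, SE 0.53, adjusted p = 0.0479). This call was close to the threshold. It was lost without any 1 of the 4 WT/WT saline libraries, the 3 KO/KO saline libraries or WT/WT ADR replicate 2 or 3, with adjusted p values of 0.0600 to 0.189. It held without WT/WT ADR replicate 1 (log2 fold change -2.60, adjusted p = 0.000674) or either KO/KO ADR library. Of the 9 other alternatives, 5 lost the call. The adjusted p was 0.448 with KO/KO ADR replicate 2 kept, 0.165 with no filter on low counts, 0.0512 with a filter at a mean of 1 CPM, 0.0549 with both experiments in 1 fit and 0.0586 with the 2 groups alone. The call held with median-ratio factors, DESeq2, voom and the replicate block, with adjusted p values of 4.73e-05 to 0.0489.

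Of 10 other genes of calcium reabsorption and the vitamin D response, 3 rose and 3 fell after ADR in WT/WT mice, and the median of the 10 log2 fold changes was 0. Trpv6, an apical calcium channel, rose (log2 fold change 1.63, adjusted p = 0.000930), whereas Kl, the co-receptor for the phosphate hormone FGF23, and Pth1r, the parathyroid hormone receptor, fell (-1.36 and -0.71, adjusted p = 0.00646 and 0.0100). Of 6 markers of the distal convoluted and connecting tubule, 2 fell, Slc12a3, the thiazide-sensitive salt transporter, by 0.62 and Tmem52b by 0.39 on the log2 scale, and the list summed to 2598 to 4963 CPM after ADR and 4838 to 5474 in saline. Of 8 proximal tubule markers 3 fell (Lrp2, Cubn and Slc22a6), and none of 7 collecting duct markers passed the test. The part of the cell makeup in the S100g values was not tested.

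S100a8 and S100a9 form calprotectin, the main cytosolic protein pair of neutrophils, and were scarce. S100a8 had 14, 22, 6 and 5 counts in the WT/WT saline libraries and 49, 22 and 48 counts after ADR. S100a9 had 27, 40, 17 and 12 counts in saline and 92, 46 and 57 counts after ADR. In CPM both were higher in all 3 ADR libraries than in the 4 saline libraries, S100a8 at 0.827 ± 0.335 (SD, n = 3) against 0.262 ± 0.163 and S100a9 at 1.40 ± 0.688 against 0.538 ± 0.245. Neither passed the test (log2 fold changes 1.63, SE 0.68, and 1.36, SE 0.60, adjusted p = 0.0920 and 0.106). Both passed without KO/KO ADR replicate 1 or 3 and with the 2 groups fitted alone. S100a9 counts per S100a8 count were 1.19 to 2.09 after ADR and 1.82 to 2.83 in saline.

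Neutrophil markers were scarce as well. The list of 12 summed to 6.42 to 14.8 CPM in the WT/WT ADR libraries and 1.93 to 3.59 CPM in saline, and 7 of the 12 passed the filter on low counts. Of these, 5 passed only through ADR libraries, so their rise is not counted. The other 2 were Csf3r, the receptor for the neutrophil growth factor, and Ltf. Of this pair Csf3r rose (log2 fold change 2.07, adjusted p = 0.00539). Ctsg had 0 counts in every group once KO/KO ADR replicate 2 was left out. Mpo and Elane had 0 counts in all saline libraries and at most 2 and 1 after ADR in WT/WT mice, and Ly6g had 2 to 12 counts after ADR and 0 to 1 in saline. The library with the most S100a8 and S100a9 counts of the 3, ADR replicate 1, had the lowest summed neutrophil markers (6.42 CPM). Their part in the S100a8 and S100a9 values was not tested.

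S100a4, known as fibroblast-specific protein and a regulator of non-muscle myosin, had 7, 2, 1 and 2 counts in saline and 10, 12 and 9 after ADR. In CPM the highest saline library (0.159) overlapped the lowest ADR library (0.153), and the difference did not pass the test (log2 fold change 1.63, SE 0.58, adjusted p = 0.0538). S100a4 entered the test only through ADR replicates 1 and 2, which alone reached the minimum count, and without either of them it was not tested. Its values are therefore a description. The shared exons of Gm42674, described above, limit what these counts can show. S100a1, best known from heart muscle, where it regulates calcium release, was one of the most abundant members. It had 371, 322, 289 and 275 CPM in saline and 432, 469 and 362 CPM after ADR, and the groups overlapped (log2 fold change 0.42, SE 0.16, adjusted p = 0.0685). It passed without saline replicate 1 (0.51, adjusted p = 0.0422) and in 2 of 9 alternatives that left out no library in turn.

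There were 9 other S100 genes with a row, and 6 passed the filter in the ADR experiment. S100a3 passed only through ADR libraries and is given by its counts alone. Of the other 5, 3 rose after ADR in WT/WT mice and none in KO/KO mice. S100a14, an epithelial S100 protein, had 0.319 to 0.601 CPM in saline and 1.55, 2.11 and 4.09 CPM after ADR (log2 fold change 2.55, adjusted p = 0.00153). S100a13, the divergent neighbour of S100a1, rose by 0.69 on the log2 scale (adjusted p = 0.00449) and S100a16 by 0.32 (adjusted p = 0.0235). S100a3, which also shares exons with Gm42674, had 0, 0, 1 and 0 counts in saline and 5, 20 and 16 after ADR. S100a7a and S100b had log2 fold changes of 0.09 and 0.02 (adjusted p = 0.906 and 0.977).

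Of 13 partners and receptors of S100 proteins, 4 rose and 2 fell after ADR in WT/WT mice. Anxa1 and Anxa2, the annexins bound by S100a11 and S100a10, rose by 1.39 and 1.57 on the log2 scale (adjusted p = 0.000861 and 0.00233). Ager, which encodes RAGE, rose by 2.09 (adjusted p = 0.00171). The members and partners that rose did so in kidneys where other lists moved too. All 9 injured tubule markers rose, with Krt20 (a keratin of injured epithelium), Spp1 (osteopontin) and Clu (clusterin) having the smallest p values, and the list summed to 4503, 21792 and 18310 CPM in ADR replicates 1 to 3 against 1747 to 1875 in saline. Of 12 macrophage and monocyte markers 10 rose, to sums of 377 to 918 CPM from 184 to 241. Of 10 fibroblast markers 7 rose and 1 fell, with sums of 648 to 1304 against 349 to 419 CPM, and 6 of 7 podocyte markers fell, with sums of 158 to 487 against 621 to 693 CPM. Of 8 T cell markers 2 rose, of 9 hepatocyte markers tested 1 rose, and of 8 genes of the DNA damage checkpoint and G1 arrest 6 rose. Replicate 1 was the ADR library with the lowest S100a6, S100a10 and S100a11 and also with the lowest sum of injured tubule markers. The part of these lists in the values of the members was not tested.

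**Figure D3:**
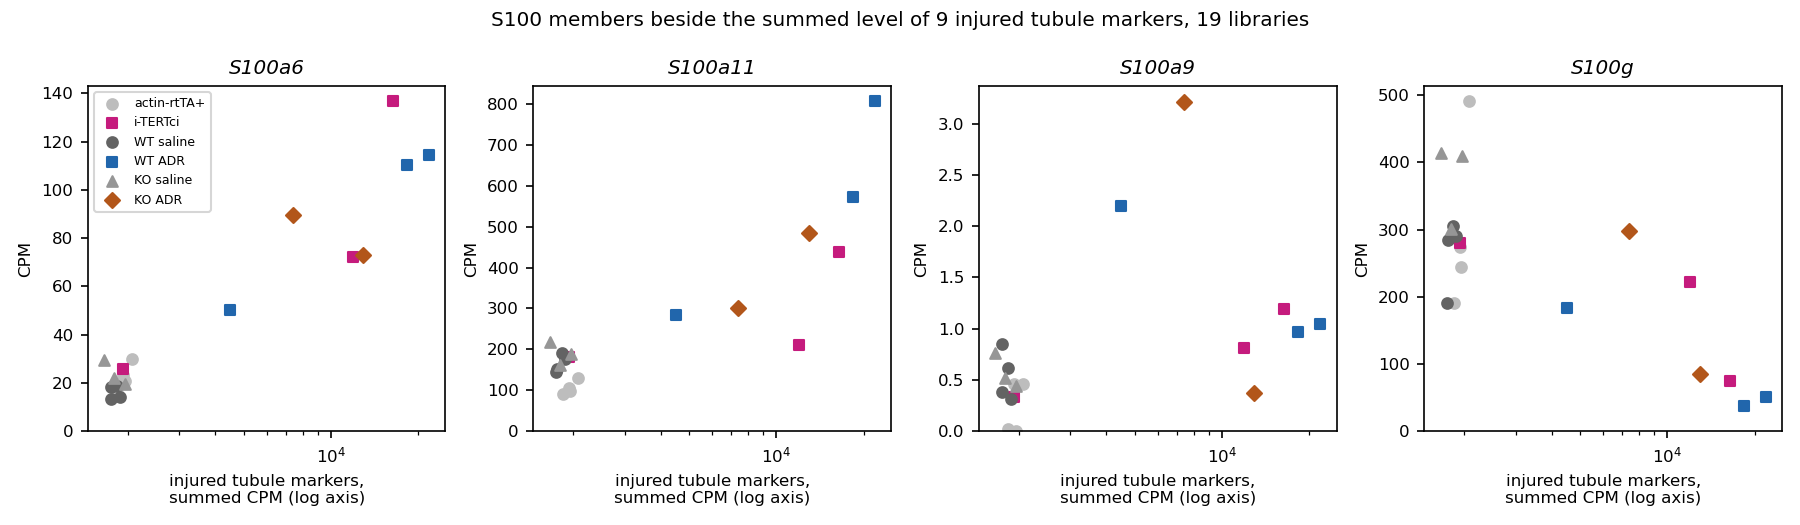
CPM of S100a6, S100a11, S100a9 and S100g (linear axes) beside the summed CPM of 9 injured tubule markers (log axis), 1 point per library and the 19 libraries in group means. The libraries at or below 2067 CPM of the markers, all controls and i-TERTci replicate 2, lie at the low end for S100a6, the highest S100a9 values are not at the highest marker sums, and S100g is lowest where the markers are highest.

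In KO/KO mice 1 of the 8 members, S100a6, rose after ADR, and none fell. Of the 19023 genes tested, 3.83% were called higher, 1.43% lower and 5.26% in either direction. S100a6 had 21.8, 29.4 and 19.4 CPM in KO/KO saline libraries. It had 89.5 and 72.9 CPM in ADR replicates 1 and 3, and 0.899 CPM in the library labelled replicate 2. The 2 kept ADR libraries lay above all 3 saline libraries, at means of 81.2 ± 11.7 (SD, n = 2) and 23.5 ± 5.22 CPM (n = 3). The difference was 3.45-fold (log2 fold change 1.79, SE 0.30, adjusted p = 0.00850). It passed the test without any 1 of the 12 libraries, with a highest adjusted p of 0.0498, and did not pass with replicate 2 kept (log2 fold change 1.22, adjusted p = 0.371).

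S100a10 and S100a11 also had no overlap between the KO/KO groups. S100a10 had 72.6, 76.4 and 73.8 CPM in saline and 133 and 155 CPM after ADR (log2 fold change 0.95, SE 0.28, adjusted p = 0.0688). S100a11 had 162, 218 and 189 CPM in saline and 302 and 485 CPM after ADR (1.05, SE 0.34, adjusted p = 0.0845). Both passed with DESeq2, with limma voom, with the 2 groups alone and without WT/WT ADR replicate 1, and S100a10 also passed without WT/WT ADR replicate 2. S100g had 301, 415 and 410.1 CPM in saline and 297 and 84.5 CPM after ADR. The groups did not overlap, ADR replicate 1 was near the lowest saline library, and the difference did not pass the test (log2 fold change -0.97, SE 0.63, adjusted p = 0.361).

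The remaining members did not pass in KO/KO mice. S100a8 had 5, 21 and 10 counts in saline and 74 and 11 after ADR, and S100a9 had 22, 27 and 16 counts in saline and 152 and 19 after ADR. ADR replicate 1 alone stood high for both, and without it their log2 fold changes turned from 1.44 and 1.63 to -0.62 and -0.65. Without ADR replicate 3, S100a9 passed the test (log2 fold change 2.48, adjusted p = 0.0439). That library pair had nearly the same summed neutrophil markers, 6.71 and 6.74 CPM. S100a4, tested only because of WT/WT ADR libraries, had 1, 2 and 1 counts in saline and 9 and 9 after ADR (log2 fold change 2.28, SE 0.78, adjusted p = 0.103), and S100a1 had 343, 449 and 422 CPM against 372 and 282 CPM (-0.31, SE 0.19, adjusted p = 0.352). Libraries of the 2 groups did not overlap for 5 members, where 42.1% of all genes had no overlap with 2 against 3 libraries. S100a4 is among the 5 but was tested only through ADR libraries, so its lack of overlap is a description.

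In KO/KO mice Anxa1 and Anxa2 were the 2 of 13 partners that rose (log2 fold changes 1.04 and 1.16, adjusted p = 0.0165 and 0.0484). Of the calcium and vitamin D genes Trpv6 rose and Pth1r fell (1.18 and -0.96). Of the marker lists, 4 of 9 injured tubule markers rose, with sums of 7383 and 12940 CPM after ADR and 1658 to 1962 in saline, as did 3 of 12 macrophage and monocyte markers and 4 of 10 fibroblast markers. None of the 7 neutrophil, 8 T cell, 6 distal tubule, 8 proximal tubule or 9 hepatocyte markers tested passed. Among 7 collecting duct markers 1 fell (Hsd11b2, which inactivates glucocorticoids), and 2 of 7 podocyte markers fell. Of 8 DNA damage checkpoint genes 6 rose. As in WT/WT mice, the part of these lists in the S100 values was not tested.

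**Figure D4:**
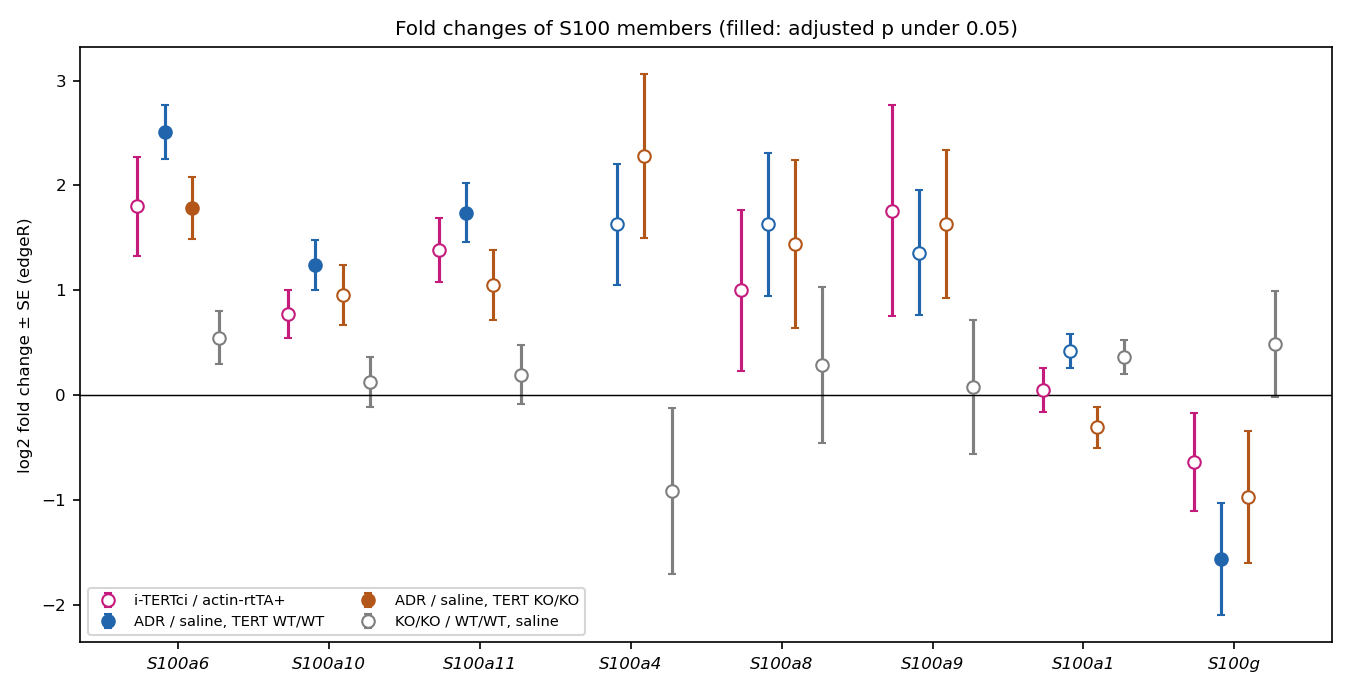
Log2 fold changes ± SE of the 8 members from edgeR in 4 comparisons, with filled points at an adjusted p under 0.05. The filled points are S100a6, S100a10, S100a11 and S100g for ADR in WT/WT mice and S100a6 for ADR in KO/KO mice, and S100a4 has no point for i-TERTci because it was not tested there.

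The ADR effects of the 2 genotypes were compared directly, as a difference of log2 fold changes (KO/KO minus WT/WT). No member passed with edgeR, nor did any of the 19023 genes (0% called), where 2288 had an unadjusted p under 0.05, and DESeq2 called 0 members and 138 genes. For S100a6 the difference was -0.72 (SE 0.40, adjusted p = 0.463), for S100a10 -0.29 (SE 0.38), for S100a11 -0.69 (SE 0.45) and for S100g 0.59 (SE 0.79). S100a1 was the 1 member with an unadjusted p under 0.05 (difference -0.73, SE 0.25, adjusted p = 0.339). None of the marker or pathway lists held a gene that passed in this comparison. A rise in WT/WT mice that did not pass in KO/KO mice is not shown to differ between them.

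KO/KO and WT/WT kidneys were also compared within each treatment. In saline no member passed with edgeR, 1 had an unadjusted p under 0.05 (S100a1, log2 fold change 0.37, SE 0.16, adjusted p = 0.566) and 0.00526% of genes were called. DESeq2 called 0 members and limma voom 1 (S100a1), among 2243 genes that voom called. All 3 KO/KO libraries of S100a6 lay above the 4 WT/WT libraries, at 23.5 ± 5.22 against 16.1 ± 2.72 CPM (SD, n = 3 and 4), a log2 fold change of 0.55 (SE 0.25, adjusted p = 0.566). It was the 1 member of 8 without overlap, where 12.8% of all genes had none. After ADR no member passed with edgeR or DESeq2, none had an unadjusted p under 0.05, none was without overlap, and 0.0736% of genes were called and 16.6% had no overlap. S100g differed most, at 297 and 84.5 CPM in KO/KO and 183, 51.3 and 37.2 in WT/WT mice (log2 fold change 1.08, SE 0.60, adjusted p = 0.706). Without WT/WT ADR replicate 1 it passed the test (2.11, adjusted p = 0.0300). No gene of the other lists passed in either of these comparisons.

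In i-TERTci kidneys at R8 no member passed with edgeR, although 3 had an unadjusted p under 0.05 and the directions of S100a6, S100a10, S100a11 and S100g were those of the ADR comparison. Of 17745 genes tested, edgeR called 0.00564%, and 3972 genes had an unadjusted p under 0.05. From the same libraries DESeq2 called 1934 genes. S100a6 had 15.7, 30.1, 23.2 and 20.9 CPM in the controls and 137, 25.9 and 72.1 CPM in i-TERTci mice. Replicates 1 and 3 lay far above the controls and replicate 2 lay among them (log2 fold change 1.80, SE 0.47, adjusted p = 0.0890). S100a10 had 75.1, 102, 78.4 and 86.4 CPM in the controls and 197, 98.4 and 142 CPM in i-TERTci mice, with the same library within the range of the controls (0.77, SE 0.23, adjusted p = 0.109). S100a11 had 90.5, 129.9, 106 and 98.2 CPM in the controls and 439, 181 and 211 CPM in i-TERTci mice. It was the 1 member whose groups did not overlap, where 17.2% of all genes had no overlap (1.38, SE 0.30, adjusted p = 0.0758).

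Replicate 2, the i-TERTci library within the controls for S100a6 and S100a10 but above them for S100a11, had the most Tert counts of the 3 (1086). Its podocyte markers summed to 1129 CPM, above the 564 to 708 CPM of the controls, where replicates 1 and 3 had 255 and 539 CPM. Its injured tubule markers summed to 1925 CPM, within the 1835 to 2067 CPM of the controls, where replicates 1 and 3 had 16382 and 11936 CPM. The same library had 242 CPM of macrophage and monocyte markers against 1700 and 886 in the other two and 159 to 240 in the controls, and 684 CPM of fibroblast markers against 2892 and 2125 and 380 to 562 in the controls. Without it, S100a6, S100a10 and S100a11 passed the test (log2 fold changes 2.21, 0.98 and 1.61, adjusted p = 0.000923, 0.00531 and 0.00324). DESeq2 and limma voom called the same 3 members with all libraries in, among 1934 and 6039 genes called. The fit over both experiments called S100a6 and S100a11, again among far more genes than the main fit called. The calls of these alternatives were therefore not particular to the members. No gene of the other lists passed with edgeR, although 9 of 9 injured tubule markers (1 of them, Krt20, tested only through i-TERTci libraries), 11 of 12 macrophage and monocyte markers and 9 of 10 fibroblast markers had an unadjusted p under 0.05. The part of the lists in these values was not tested.

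The other members did not pass in i-TERTci mice and their groups overlapped. S100g had 191, 491, 274 and 244 CPM in the controls and 74.9, 280.0 and 222 CPM in i-TERTci mice (log2 fold change -0.64, SE 0.47, adjusted p = 0.448). Replicate 1, which had the highest injured tubule markers of the 3, was the lowest for S100g. S100a1 had 206 to 369 CPM in the controls and 260.4 to 306 in i-TERTci mice (0.05, SE 0.21). S100a8 had 6, 18, 8 and 1 counts in the controls and 39, 10 and 13 in i-TERTci mice, and S100a9 had 1, 18, 20 and 0 against 71, 13 and 43 (1.00, SE 0.77, and 1.76, SE 1.01). Both entered the test only through the i-TERTci libraries. The 0 of S100a9 allows up to 3 counts, for counting error only. Neutrophil markers summed to 15.7, 5.02 and 10.8 CPM in i-TERTci replicates 1 to 3 and to 2.31 to 5.28 CPM in the controls, with Mpo, Elane and Ctsg at 0 counts in all controls. S100a4 did not pass the filter, with 28, 2 and 5 counts in i-TERTci mice and 3, 4, 1 and 3 in the controls.

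The i-TERTci effect was set against the ADR effect in WT/WT mice in 1 fit over 19 libraries. No member passed with edgeR, none had an unadjusted p under 0.05 and 0.00505% of 19783 genes were called, while DESeq2 called 0 members and limma voom 4. The voom fit called 2101 genes. S100a6 differed by -0.73 (SE 0.55, adjusted p = 0.817), S100a10 by -0.49 (SE 0.35), S100a11 by -0.38 (SE 0.44) and S100g by 0.90 (SE 0.76). The 2 experiments differ in strain background, agent and time, and these cannot be told apart.

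Across the 12 libraries of the ADR experiment, some members moved together. Pearson's r of log2 CPM was 0.97 between S100a10 and S100a11, 0.94 between S100a6 and S100a10, 0.93 between S100a6 and S100a11 and 0.93 between S100a8 and S100a9. Between S100a8 or S100a9 and the first 3 genes r was 0.33 to 0.65, and S100g ran opposite to S100a11 (r of -0.86). In the 7 libraries of the i-TERTci experiment the same pairs had r of 0.96, 0.99, 0.94 and 0.87, S100a11 and S100g had -0.67, and S100a8 or S100a9 with the first 3 genes had 0.66 to 0.77, closer to the 0.87 between S100a8 and S100a9. These libraries share groups and scaling, so the values are descriptions. In the i-TERTci experiment S100a8 and S100a9 passed the filter only through i-TERTci libraries, which limits their r there further. Among the 11321 genes that averaged 5 CPM or more, the 2 genes most like S100a6 were Serpine2, a protease inhibitor, and 2200002D01Rik (r of 0.99 and 0.98). For S100a10 they were Ifi30, a lysosomal thiol reductase, and Arid5a, an RNA-binding regulator (r of 0.98 each). For S100a11 they were Tmem176b and Ctxn1 (r of 0.99 each), and for S100g Sirt3, a mitochondrial deacetylase, and 0610005C13Rik (r of 0.97 each). S100a1 was most like Commd4 and Mea1, S100a8 like Hdgfl2 and Gtf2f1, S100a9 like Trip6 and Rplp0, and S100a4 like Timeless and Itga7, with r of 0.89 to 0.98. S100a4 entered this set only through ADR libraries and had few counts, so its likeness says nothing beyond that.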

How the data were processed

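Per the labels and the study's methods, RNA of whole kidneys was sequenced as paired ends, and the authors checked reads with FastQC, trimmed them with Trimmomatic, aligned them to mm10 with STAR and tested them with DESeq2. They deposited unnormalized whole counts per gene. The counter, the annotation and the strand setting are not given in the sources used here. Identifiers were matched to GENCODE M21, 54487 with the same version, 657 without the version and 327 unmatched of 55471. The members and lists were chosen with earlier results of these data known.

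From the counts, edgeR 4.0.16 in R 4.3.3 (robust quasi-likelihood test, filterByExpr with a minimum count of 10, TMM factors) was fitted to each experiment with 1 coefficient per group, with Benjamini-Hochberg adjustment over all genes tested. Genes with an adjusted p under 0.05 were called. The difference between experiments was fitted over 19 libraries. CPM used TMM factors within each experiment, and RPKM used exon-union lengths of GENCODE M21, which the authors did not name. Depth was 39323498 to 48399322 counts per library. The scripts were tested on simulated counts. Replicate libraries of every group differed by more than sampling noise. KO/KO ADR replicate 2 entered no mean or test.

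All members were named in each comparison, with every other S100 gene that passed the filter. From each other list, counts and up to 3 genes with the smallest p were given, and for likeness the 2 genes with the highest r. Alternatives were other size factors, other filters on low counts, DESeq2 1.42.0, limma 3.58.1 voom with sample quality weights, a block for replicate number, both experiments in 1 fit, the compared groups alone, that library kept, and each library left out in turn. Upstream sequences came from RefSeq, GRCm38.p6.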

Additional observations from a re-analysis of the deposited data

Results flagged for a closer look

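KO/KO ADR replicate 2, which entered no comparison, had 47 counts of S100a8 (0.983 CPM without TMM factors) and 84 counts of S100a9 (1.76 CPM), above the highest KO/KO saline library (0.519 and 0.667 CPM). Its neutrophil markers summed to 35.4 CPM, and the other 6 members were not above KO/KO saline in it. In the 16 groups of 4 libraries that were examined, 1 for each member in actin-rtTA+ and in WT/WT saline mice, 0 had a library that stood apart by Dixon's ratio, of which chance gives about 1 in 20.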

How the results depend on the processing

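The calls of S100a6, S100a10 and S100a11 after ADR in WT/WT mice held under every alternative run except with KO/KO ADR replicate 2 kept, where 0 members were called in either genotype. With it kept, 894 genes were called in WT/WT and 295 in KO/KO mice. The number of members called, 4 in WT/WT mice, was 7 with voom, which called 9248 genes there where the main fit called 5164. The S100g call there was lost in 9 of 12 fits without 1 library and in 5 of 9 other alternatives. In KO/KO mice 1 member was called, and 3 with DESeq2, with voom or with the compared groups alone. These fits called 2196, 1560 and 1710 genes, against 1001 in the main fit. For i-TERTci 0 were called, and 3 with DESeq2, 3 with voom and 2 with both experiments in 1 fit. There DESeq2 called 1934 genes and voom 6039, where the main fit called 1. Voom called 1 member between genotypes in saline and 4 for i-TERTci minus ADR, among 2243 and 2101 genes called, where the main fits called 1 gene each. The cause was not tested. With 1 library left out, 0 to 3 members were called for i-TERTci, 3 to 6 for ADR in WT/WT, 1 to 3 for ADR in KO/KO and 0 to 1 between genotypes after ADR.

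With the replicate number as a block, 4 members were called for ADR in WT/WT mice and 1 in KO/KO mice, as without it, and 0 in the other comparisons. The numbers did not pair the mice, since deviations of libraries with the same number had correlations of -0.34 to 0.36.

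No member log2 difference that passed the test changed sign. With voom, signs turned for S100a1 for i-TERTci (-0.021), S100a8 and S100a9 between genotypes after ADR (-0.18 and -0.028), S100a9 in the difference of ADR effects (-0.14) and S100a4 for i-TERTci minus ADR (-1.07). With the block they turned for S100a8 after ADR (-0.065), S100a9 in saline (-0.064) and S100a4 for i-TERTci minus ADR (-0.17). With KO/KO ADR replicate 2 kept, the difference of ADR effects was 0.45 for S100a8 and -0.011 for S100g.

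With 1 library left out, values that changed sign ran as follows. For i-TERTci, S100a1 ran from -0.086 to 0.23. For ADR in KO/KO, S100a8 ran from -0.62 to 2.26 and S100a9 from -0.65 to 2.48. Between genotypes in saline, S100a8 ran from -0.45 to 0.73 and S100a9 from -0.18 to 0.39. After ADR, S100a6 ran from -0.47 to 0.011, S100a8 from -1.96 to 0.92, S100a9 from -1.93 to 1.20, S100a10 from -0.45 to 0.20 and S100g from -0.11 to 2.11. In the difference of ADR effects, S100a4 ran from -0.15 to 1.08, S100a8 from -2.25 to 0.64, S100a9 from -2.02 to 1.13, S100a10 from -0.57 to 0.066 and S100g from -0.60 to 1.62. For i-TERTci minus ADR, S100a4 ran from -1.39 to 0.50, S100a8 from -1.26 to 0.17, S100a9 from -0.051 to 0.98 and S100a11 from -0.85 to 0.017. Depth limits S100a4, S100a8 and S100a9, which had 0 to 152 counts.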
